A study of Mus musculus with 6 samples.

Results

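The chemokine receptors described here are 9 genes chosen by name, Ccr1, Ccr2, Ccr3, Ccr7, Cxcr2, Cxcr3, Cxcr4, Cxcr5 and Cx3cr1. All 9 were found by symbol among the 17890 genes of a count table from mouse lymph-node mast cells, and 7 of them had enough reads to be tested. The study set 3 libraries of mast cells taken from nodes free of tumour (uninvolved, uLN) against 3 libraries from nodes that held metastases (mLN). The labels name the tissue as lymph node and give no strain, age, sex, tumour or treatment, so the groups are known only by the state of the node. The labels used here do not say how the cells were isolated, whether they were cultured or whether animals were pooled. The comparison asks how the transcripts of mast cells differ where a tumour has reached the node.

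Chemokine receptors are seven-pass membrane proteins coupled to inhibitory G proteins, and they steer cells along gradients of small secreted proteins, the chemokines. Receptor binding frees the G protein beta and gamma subunits, which drive phosphoinositide 3-kinase and Rac at the leading edge, after which receptor kinases and arrestins silence and internalise the receptor. Receptors with CC or CXC in their name bind chemokines of that cysteine pattern, and Cx3cr1 binds the membrane-anchored chemokine Cx3cl1. Mast cell progenitors and mature mast cells use such receptors to enter and move within tissues, while Ccr7, Cxcr5 and Cxcr3 are best known from dendritic cells, B cells and T cells in lymph nodes.

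Several CC receptor genes lie side by side on chromosome 9 and are copies of one another, so their sequences are given first because they set how well reads can be told apart. Ccr1 and its mouse copy Ccr1l1 shared 76.0% of aligned coding bases, and Ccr1 and Ccr3 shared 66.9%, with an identical run of 47 bases at most. The first 60 coding bases of 4 of these genes, with the start codon in capitals, differ from one another:
Ccr2: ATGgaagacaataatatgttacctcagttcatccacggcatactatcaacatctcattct
Ccr1: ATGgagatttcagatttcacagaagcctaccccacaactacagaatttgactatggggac
Ccr3: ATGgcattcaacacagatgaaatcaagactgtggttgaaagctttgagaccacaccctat
Ccr1l1: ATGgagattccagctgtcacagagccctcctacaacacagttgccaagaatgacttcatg
Of the 50-base words in the GENCODE M21 transcripts of Ccr2, 1.91% also occur in other genes. The share was 0 for Ccr1, Ccr3, Ccr7, Cxcr3 and Cxcr4, 1.06% for Cx3cr1, 2.04% for Cxcr5 and 6.68% for Cxcr2. For Cxcr5 the shared words all lie in Bcl9l, a gene on the opposite strand whose exons overlap those of Cxcr5.

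Promoter sequence is shown for the pair of members with the strongest fall and for the better-covered pair that rose. Each is the 250 bases before the RefSeq start in GRCm38.p6, on the strand of the gene, with the start as listed there (for Ccr3 it lies inside the gene's span), with matches to a motif in capitals:
Cx3cr1, chr9:120068297-120068546, minus strand: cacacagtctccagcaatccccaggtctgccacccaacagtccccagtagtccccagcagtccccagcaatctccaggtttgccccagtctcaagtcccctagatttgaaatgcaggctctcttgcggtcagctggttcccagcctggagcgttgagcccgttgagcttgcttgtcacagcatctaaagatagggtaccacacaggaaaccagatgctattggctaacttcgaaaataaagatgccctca
Ccr1, chr9:123968693-123968942, minus strand: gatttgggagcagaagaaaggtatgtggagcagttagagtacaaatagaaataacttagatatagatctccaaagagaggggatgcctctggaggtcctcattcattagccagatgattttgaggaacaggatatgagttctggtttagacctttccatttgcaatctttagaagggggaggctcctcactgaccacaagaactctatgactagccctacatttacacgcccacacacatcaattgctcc
Ccr3, chr9:124021721-124021970, plus strand: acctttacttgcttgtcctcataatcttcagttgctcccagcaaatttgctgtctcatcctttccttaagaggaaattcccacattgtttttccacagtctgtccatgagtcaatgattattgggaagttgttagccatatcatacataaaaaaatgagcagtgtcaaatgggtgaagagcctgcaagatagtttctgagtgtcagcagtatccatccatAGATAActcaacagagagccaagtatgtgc
Cxcr4, chr1:128592300-128592549, minus strand: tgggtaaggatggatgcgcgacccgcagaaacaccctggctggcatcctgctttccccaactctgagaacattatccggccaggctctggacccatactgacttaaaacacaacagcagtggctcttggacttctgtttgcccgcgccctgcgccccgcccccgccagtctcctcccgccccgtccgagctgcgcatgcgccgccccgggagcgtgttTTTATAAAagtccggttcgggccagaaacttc
The motifs searched, on both strands, were AGATAA of GATA factors, the E-boxes CATGTG and CACGTG, GAGGAAGT of PU.1, TTCNNNGAA of STAT factors, TATAAA, and ACGTG of the hypoxia response, which also lies inside CACGTG. Ccr3 holds AGATAA at bases -30 to -25 before its start. Ccr2, whose window also lies inside the gene's span, holds it on the other strand at -97 to -92. That motif occurs in 9.99% of 32851 RefSeq promoter windows of the same length. Cxcr4 holds overlapping TATAAA matches from -32 to -25, a motif in 12.4% of windows, and Cxcr3 holds the PU.1 letters at -16 to -9, found in 2.44%. None of the 7 motifs was found in the windows of Cx3cr1, Ccr1 and Cxcr2. A match describes the letters only. RefSeq windows were found for 7 of the 9 members, which leaves out Ccr7 and Cxcr5.

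In these mast cells Cx3cr1 and Ccr1 were the most abundant members and both fell in mLN, while Ccr3 rose 2.30-fold. Cxcr4 and Cxcr5 rose from low levels, Cxcr2 fell by a small amount, and Ccr2 was not called. Ccr7 was near 0 in uLN and low in mLN, and Cxcr3 had 1 read in 6 libraries. Of the 7 tested members, 3 rose and 3 fell. Cxcr5, among those that rose, passed the expression filter only through its mLN libraries. Among all 12706 tested genes 67.4% were called, 33.2% higher and 34.2% lower, so 6 calls of 7 are read against that background. The groups did not overlap for 3 members that were higher and 3 that were lower, as for 35.6% and 37.3% of all tested genes, 72.9% in all. With the spread between libraries set to a biological coefficient of variation of 0.2, 31.9% of genes and 5 of the 7 members were called. The test was then edgeR's likelihood ratio test, and that spread exceeds the common estimate of 6.49%. Estimated within each group, the coefficient was 3.1% in uLN and 9.14% in mLN, so the common value hides a difference between the groups. For Cxcr4 and Cxcr5 the setting of 0.2 was not stricter, since their errors were smaller under it, at 0.35 against 0.38 and 0.42 against 0.45 (SE). The median log2 fold change of the tested members was 0.17, against -0.01 over all tested genes. These are bulk samples, in which fewer cells of a type and less RNA per cell cannot be told apart.

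Library totals ran from 17643916 to 17799420 reads. Mast cell markers were abundant in both groups but shifted among themselves, with 6 of 11 tested lower (Kit 2.47-fold, Mrgprb2 1.81-fold) and 3 higher (Cma1 2.01-fold, Tpsb2 2.06-fold, Mcpt4 4.03-fold), and with a summed level of 41500 to 43300 CPM in uLN and 39700 to 42400 CPM in mLN, where CPM is the read count scaled to library size with TMM normalisation. mLN replicate 3 stood somewhat apart, with a median per-gene chi-square of 2.58 and 2.48 against mLN replicates 1 and 2, which differed from each other by 0.74. Keratinocyte markers summed to 11.2 to 22.2 CPM in uLN and 22.1 to 196 CPM in mLN, the highest in mLN replicate 1, with 5 of 5 tested genes higher. Only 1 of the 5 had groups that did not overlap. Dsp, for instance, had 282, 14 and 41 reads in mLN replicates 1, 2 and 3, against 14, 15 and 8 in uLN. Markers of fibroblasts and endothelium other than Pecam1, which made up most of that list, summed to 5.23 to 14.1 CPM in uLN and 13.3 to 113 CPM in mLN. In that list Dcn, Col1a1 and Col1a2 rose, and Dcn had 591 of its mLN reads in replicate 1. Without mLN replicate 1, the calls of all members were as with it, except that of Cxcr2, whose log2 change was nearly the same, at -0.32 against -0.34 (adjusted p = 0.0792 in edgeR's quasi-likelihood test).

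**Figure D1:**
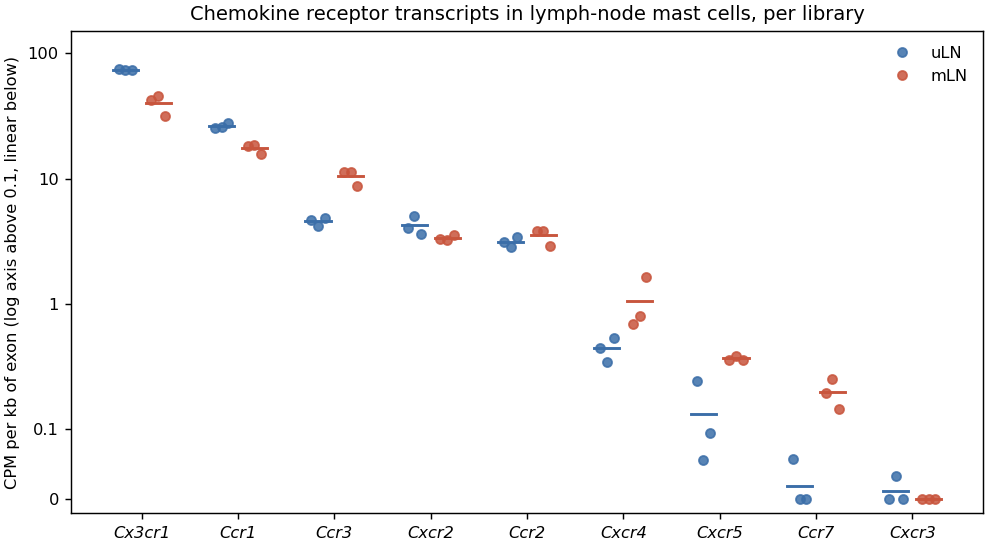
Level of each receptor per library, in TMM-normalised CPM per kilobase of exon on an axis that is logarithmic above 0.1 and linear below, for uLN and mLN, with points for libraries and bars for means. Cx3cr1 leads in both groups, at 74.1 in uLN and 39.9 in mLN, and Cxcr3 lies at 0 in 5 of 6 libraries.

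Levels can be ordered only per length, and were set per kilobase of the exons of protein-coding GENCODE transcripts. In uLN Cx3cr1 stood first at 74.1 ± 0.783 CPM per kb (SD, n = 3), followed by Ccr1 at 26.4 ± 1.42. Ccr3 at 4.60 ± 0.347, Cxcr2 at 4.24 ± 0.733 and Ccr2 at 3.13 ± 0.285 CPM per kb came next. Ccr3 and Cxcr2 overlapped between libraries and their order is not set by these data. Cxcr4 at 0.442 ± 0.0984 and Cxcr5 at 0.132 ± 0.1 CPM per kb were far lower, and Ccr7 and Cxcr3 lay under the level of 3 reads per library. In mLN the order began with Cx3cr1 at 39.9 ± 7.25, Ccr1 at 17.5 ± 1.49 and Ccr3 at 10.5 ± 1.54 CPM per kb (SD, n = 3), none of which overlapped. Ccr2 and Cxcr2 overlapped there, at 3.53 ± 0.524 and 3.35 ± 0.166 CPM per kb, and were followed by Cxcr4 at 1.05 ± 0.524, Cxcr5 at 0.368 ± 0.0142 and Ccr7 at 0.197 ± 0.0540. The place of Ccr2 depends on the length used, since its exons span 6.76 kb over 4 transcripts while its coding sequence has 1119 bases. Per kilobase of coding sequence Ccr2 stood above Ccr3 in uLN, at 18.9 CPM per kb against 14.0 for Ccr3.

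Cx3cr1, the fractalkine receptor known from monocytes and microglia, lies on chromosome 9 from 120048683 to 120068296 in GRCm38 (gene ID 13051). It had 5878, 5847 and 5822 reads in uLN replicates 1, 2 and 3, and 3492, 3684 and 2486 in mLN. The groups were far apart, and mLN replicate 3 was the lowest library. As a level it fell from 334 ± 3.53 to 180 ± 32.7 CPM (SD, n = 3), a 1.86-fold fall and a log2 change of -0.89 ± 0.11 (SE), with an adjusted p of 2.93e-05 in edgeR's quasi-likelihood test. By CPM, which does not allow for gene length, 482 of 17890 genes stood above Cx3cr1 in uLN and 1218 in mLN. Among tested genes 19.4% changed by more in either direction. An antisense gene, Gm33858, overlaps exons of Cx3cr1 in GENCODE and is not among the rows used here, and without a stated strand setting its reads could not be told from those of Cx3cr1.

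Ccr1, a receptor for Ccl3, Ccl5 and related chemokines that mast cells and other myeloid cells carry, lies on chromosome 9 from 123962126 to 123968692 (gene ID 12768). It had 1243, 1306 and 1377 reads in uLN and 947, 943 and 781 in mLN. Every mLN library lay under every uLN library. The level fell from 74.7 ± 4.02 to 49.7 ± 4.23 CPM (SD, n = 3), a log2 change of -0.59 ± 0.07 (SE) and an adjusted p of 3.15e-05 in the same edgeR test. Markers of monocytes and macrophages, which also carry Cx3cr1, Ccr1 and Ccr2, moved in both directions beside these falls. Of 11 tested markers of that list 8 fell, while Cd68 and Adgre1, both abundant, rose 3.62-fold and 2.28-fold. The summed level of the list was 390 to 434 CPM in uLN and 352 to 377 CPM in mLN, and the lower mLN sum was carried by Sirpa, which fell from 248 to 132 CPM. Without Sirpa the other 13 markers summed to 137 to 187 CPM in uLN and 217 to 249 CPM in mLN, so the list did not move as one. Among the sparse complement genes C1qb and C1qc fell, C1qa had 20 reads in each group, and no marker of the list was at 0 in all libraries. The part of such cells in the falls of Cx3cr1 and Ccr1 was not tested.

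Ccr3, the eotaxin receptor known from eosinophils, basophils and mast cells, lies on chromosome 9 from 124017825 to 124031692 (gene ID 12771). It had 268, 244 and 278 reads in uLN and 683, 673 and 500 in mLN. All mLN libraries stood above all uLN libraries, with mLN replicate 3 the lowest of them. Its level rose from 15.0 ± 1.14 to 34.5 ± 5.03 CPM (SD, n = 3), a log2 change of 1.20 ± 0.11 (SE) with an adjusted p of 5.21e-06 in the same edgeR test, and 11.7% of tested genes changed by more. The eosinophil markers Epx and Prg2, which encode granule proteins, had 1 read each over all 6 libraries. The eosinophil list as a whole had a summed level of 18.3 to 20.8 CPM in uLN and 8.90 to 11.2 CPM in mLN, most of it Il5ra, which fell from 17.5 to 5.60 CPM. Without Il5ra the other 5 markers summed to 1.66 to 2.07 CPM in uLN and 3.79 to 5.39 CPM in mLN. Of these, Siglecf rose from 0.914 to 4.19 CPM and Alox15 fell. Among basophil markers the protease Mcpt8 had 18 to 20 reads in uLN and 12 to 26 in mLN and was not called, while Prss34 rose by 1.52 on the log2 scale. The basophil list summed to 4950 to 5450 CPM in uLN and 3640 to 4370 CPM in mLN, most of it Fcer1a and Gzmb, which mast cells also carry, and 3 of its 8 tested genes rose and 3 fell. The part of such cells in the rise of Ccr3 was not tested.

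Ccr2, the receptor for Ccl2 that monocytes follow into tissue, lies on chromosome 9 from 124101918 to 124109140 (gene ID 12772). It had 372, 339 and 400 reads in uLN and 474, 464 and 344 in mLN. The groups overlapped, since mLN replicate 3 fell among the uLN libraries. Its level was 21.1 ± 1.93 CPM in uLN and 23.8 ± 3.54 CPM in mLN (SD, n = 3), a log2 difference of 0.17 ± 0.11 (SE) that did not pass edgeR's quasi-likelihood test (adjusted p = 0.194). Without mLN replicate 3 the difference was 0.30 and was called (adjusted p = 0.00389 in the same test). The labels do not say how reads that fit more than 1 gene were counted, so the level of Ccr2 is uncertain to that extent.

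**Figure D2:**
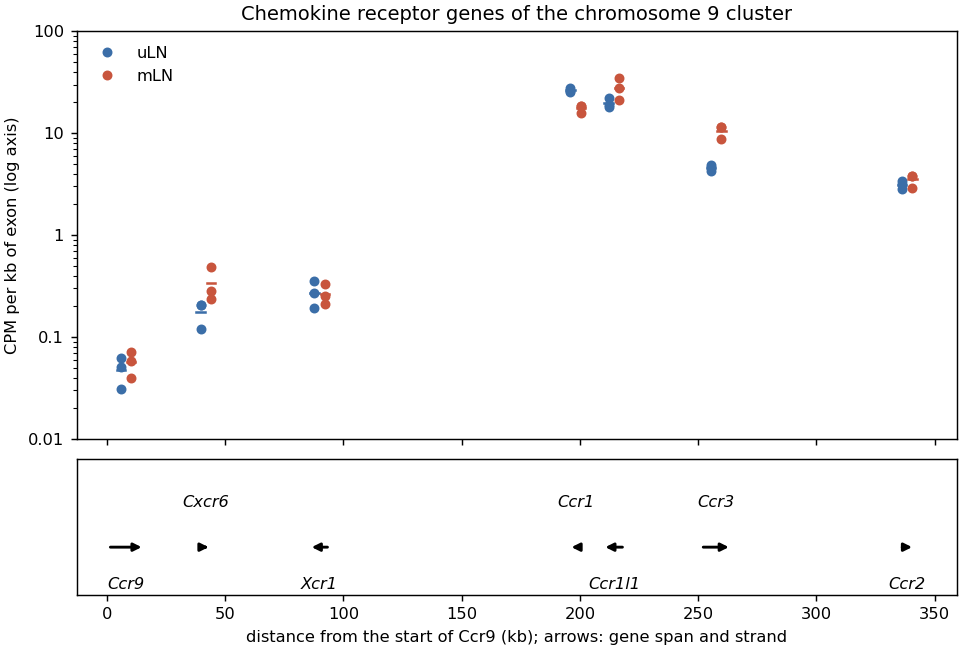
Levels of 7 chemokine receptor genes of the chromosome 9 cluster in TMM-normalised CPM per kilobase of exon (log axis), against the distance in kb from the start of Ccr9, with points for libraries, bars for means and arrows for gene span and strand. Ccr1 lies lower in mLN, at 17.5 against 26.4 in uLN, and Ccr3 lies higher, at 10.5 against 4.60.

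The members Ccr1, Ccr3 and Ccr2 lie with other receptor genes in a cluster on chromosome 9, of which 7 genes over 341.9 kb are described here. Moving from Ccr1 towards Ccr2, Ccr1 fell, Ccr1l1 and Ccr3 rose and Ccr2 was not called. Ccr3 and Ccr1 thus moved in opposite directions. The ratio of Ccr3 to Ccr1 reads was 0.216, 0.187 and 0.202 in uLN and 0.721, 0.714 and 0.640 in mLN. Ccr1l1 had 385, 375 and 447 reads in uLN and 596, 732 and 431 in mLN, and its groups overlapped. Its rise of 0.51 ± 0.15 (SE) on the log2 scale had an adjusted p of 0.0131 in edgeR's quasi-likelihood test. That call was lost without uLN replicate 1, uLN replicate 2 or mLN replicate 2 (adjusted p = 0.0539, 0.0633 and 0.0506 in the same test). The other genes of the cluster were low, with Xcr1 at 14.53 to 27.65 reads in uLN and 17.33 to 25.97 in mLN and not called (adjusted p = 0.902 in the same test). Cxcr6 had 4 to 7 reads in uLN and 8 to 17 in mLN, and Ccr9 had 3.03 to 6 and 4 to 7.06, and neither was tested.

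Cxcr2, the receptor through which Cxcl1 and Cxcl2 draw neutrophils, lies on chromosome 1 from 74153994 to 74161246 (gene ID 12765). It had 214, 273 and 193 reads in uLN and 183, 177 and 188 in mLN. Every mLN library was lower than every uLN library, but by little against uLN replicate 3. The fall from 12.9 ± 2.23 to 10.2 ± 0.505 CPM (SD, n = 3) had a log2 change of -0.34 ± 0.13 (SE) and an adjusted p of 0.0335 in edgeR's quasi-likelihood test. This call rests on single libraries and was lost without uLN replicate 1, uLN replicate 2, mLN replicate 1 or mLN replicate 2. Without uLN replicate 2, the highest library, the log2 change was -0.19 (adjusted p = 0.168 in the same test). It was also lost in DESeq2 (adjusted p = 0.0643) and with library totals as the only scaling (adjusted p = 0.0561). Of the neutrophil markers S100a8 and S100a9 had at most 3 reads in any library and Mpo at most 1. Ngp had 0, 0 and 1 reads in uLN and 4, 26 and 3 in mLN, and Elane and Ltf had no read in uLN and 5 and 4 in mLN. The neutrophil list summed to 9.63 to 11 CPM in uLN and 7.94 to 10.4 CPM in mLN, and of its 2 tested genes Csf3r, with 101.43 to 128.78 reads per library, was not called and the collagenase Mmp8 fell by 1.11 on the log2 scale. The part of such cells in the fall of Cxcr2 was not tested. The related receptor Cxcr1 had at most 2.2 reads per library.

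Cxcr4, the receptor for Cxcl12 that holds many leukocytes in bone marrow and draws them into tissues, lies on chromosome 1 from 128588199 to 128592299 (gene ID 12767). It had 14, 11 and 17 reads in uLN and 23, 26 and 52 in mLN. The groups did not overlap, and mLN replicate 3 held more reads than both other mLN libraries together. Its level rose from 0.800 ± 0.178 to 1.90 ± 0.947 CPM (SD, n = 3), a log2 change of 1.23 ± 0.38 (SE) with an adjusted p of 0.0153 in edgeR's quasi-likelihood test. Without mLN replicate 3 the log2 change was 0.76 and was not called (adjusted p = 0.0661 in the same test), and without uLN replicate 2 it was 1.08 (adjusted p = 0.0633). By CPM, which does not allow for gene length, 11129 of 17890 genes stood above Cxcr4 in mLN.

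Cxcr5, which guides B cells and follicular T cells to Cxcl13, lies on chromosome 9 from 44511787 to 44526444 (gene ID 12145). It had 13.10, 3.03 and 5.04 reads in uLN and 20.12, 21.31 and 19.12 in mLN. The groups did not overlap, and uLN replicate 1 lay nearest to mLN. Cxcr5 passed the expression filter only through its mLN libraries, so its test is not independent of its higher level there. Its level rose from 0.401 ± 0.304 to 1.12 ± 0.0430 CPM (SD, n = 3), a log2 change of 1.47 ± 0.45 (SE) with an adjusted p of 0.0137 in edgeR's quasi-likelihood test. The rise was not called without uLN replicate 2 (log2 change of 1.11, adjusted p = 0.0556 in the same test) or without uLN replicate 3 (1.28, adjusted p = 0.0630). Without uLN replicate 1 it was larger, at 2.25. Bcl9l, whose exons overlap Cxcr5 on the other strand, rose from 101 ± 3.50 to 141 ± 14.1 CPM (SD, n = 3). Since a strand setting is not given, reads of Bcl9l counted to Cxcr5 cannot be told apart from Cxcr5 reads. B cell markers were few, with Cd79a at 3 to 5 reads in uLN and 5 to 9 in mLN and Ms4a1 at 0 in every mLN library. The B cell list summed to 16.0 to 17.5 CPM in uLN and 7.52 to 8.56 CPM in mLN, led by Fcrla, which fell, while Cd22, the other tested marker, was not called. Without Fcrla the B cell markers summed to 1.61 to 2.01 CPM in uLN and 1.44 to 2.61 CPM in mLN.

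Ccr7, which takes dendritic cells and naive T cells into lymph nodes, lies on chromosome 11 from 99144199 to 99155077 (gene ID 12775). It had 2, 0 and 0 reads in uLN and 7, 9 and 5 in mLN. These reads were too few for the expression filter, and the read ratio of mLN to uLN was 10.3 with a 95% interval from 2.51 to 90.4 that covers counting error only. Tested without the filter by edgeR, Ccr7 had an adjusted p of 0.0158, where 48.8% of 17844 genes were called. Dendritic cell markers moved beside it, with a summed level of 9.17 to 10.9 CPM in uLN and 15.0 to 17.2 CPM in mLN. Most of that sum was Itgax, which rose by 0.88 on the log2 scale (without it 2.24 to 3.33 and 2.81 to 3.06 CPM), while Zbtb46 and Fscn1 were not called and Flt3 had 2.35 to 6.29 reads in each library. Clec9a, too rare for the test, had 1 read in each uLN library and 4, 6 and 4 in mLN. Ccl17, also untested, had 2, 7 and 4 reads in uLN and 2, 2 and 3 in mLN. T cell markers summed to 11.7 to 13 CPM in uLN and 6.57 to 9.01 CPM in mLN, with 3 of 5 tested markers lower (Cd4, Cd28 and Cd247) and none higher. Of the T cell receptor complex, Cd3g had 1 read over all libraries, and Cd3d had 10.91 reads over uLN and 13.5 over mLN. Lck, too rare for the test, had 0, 2 and 2 reads in uLN and 8, 6 and 4 in mLN. The part of such cells in the Ccr7 reads was not tested. Cxcr3, the receptor for the interferon-induced Cxcl9 and Cxcl10 (chromosome X from 101731535 to 101734147, gene ID 12766), had 1 read in uLN replicate 2 and 0 in the other 5 libraries. A count of 3 reads per library is 0.164 to 0.172 CPM, and both groups were under it, so Cxcr3 was not detectable at this depth in either.

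**Figure D3:**
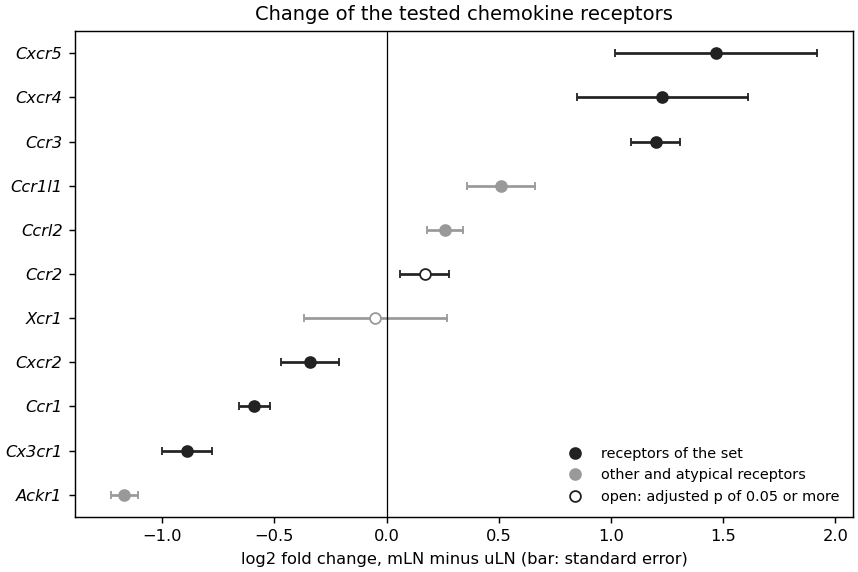
Log2 fold change of mLN minus uLN with its standard error for 11 tested chemokine receptor genes, with black for the set of 9, grey for other and atypical receptors, and open symbols for an adjusted p of 0.05 or more. Cxcr5, Cxcr4 and Ccr3 lie on the right with changes from 1.20 to 1.47, and the errors of Cxcr4 and Cxcr5 are the widest.

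The makeup of the receptor transcripts differed between the groups. Summed over the 9 members, the level was 113, 112 and 115 CPM per kb in uLN and 80.6, 83.9 and 64.9 in mLN, lower in every mLN library. Cx3cr1 made up 65.6% ± 0.864 of that sum in uLN and 51.9% ± 2.78 in mLN (SD, n = 3). Ccr3 went from 4.06% ± 0.262 to 13.8% ± 0.359 of it, with narrow spread in both groups. Ccr1 kept a like share, at 23.3% ± 0.999 and 23.1% ± 1.20. The shares are given as values, without a test, and they depend on the length used. Per kilobase of coding sequence Cx3cr1 stood at 314 CPM per kb in uLN and Ccr1 at 70.1, against 74.1 and 26.4 per kilobase of exon. mLN replicate 3 was the lowest mLN library for 5 of 7 tested members, where 42.1% of all tested genes were lowest there. It held 72.1% of the mean of the other mLN libraries for Cx3cr1, 76.3% for Ccr2, 76.7% for Ccr3 and 221% for Cxcr4.

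**Figure D4:**
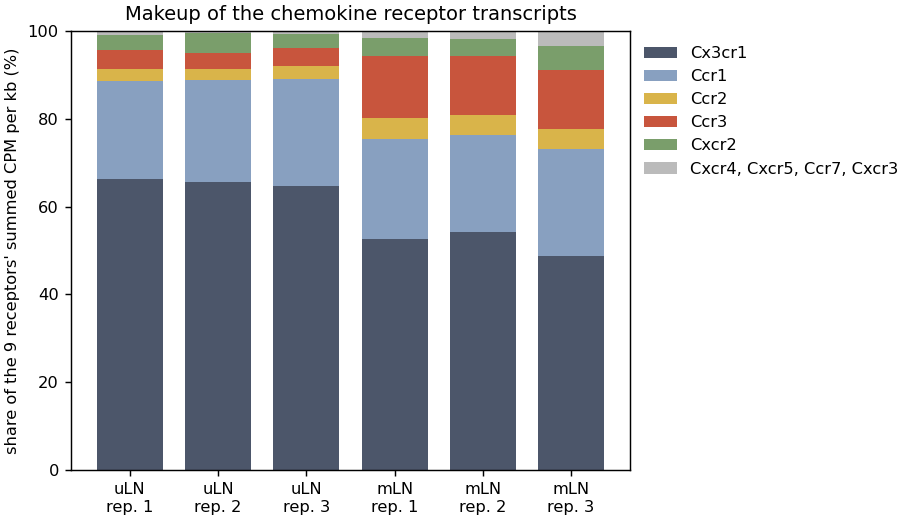
Share of each receptor in the summed CPM per kilobase of exon of the 9 members, as a stacked bar from 0 to 100% for each of 3 uLN and 3 mLN libraries. The Ccr3 share is 3.76% to 4.25% in uLN and 13.5% to 14.2% in mLN, and the Cx3cr1 share is lower in each mLN library.

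Among receptors outside the set, 9 other chemokine receptors were looked up and 2 were tested, of which Ccr1l1 rose and Xcr1 was not called. Ccr4, Ccr6, Ccr8, Ccr9, Ccr10, Cxcr1 and Cxcr6 had at most 17 reads in any library. Of 5 atypical receptors, which bind chemokines without G protein signalling, 2 were tested. Ackr1, known from red cells and venules, fell from 107 ± 1.36 to 47.4 ± 4.10 CPM (SD, n = 3), a 2.26-fold fall. Per length it stood at 80.8 CPM per kb in uLN, above Cx3cr1, but 18.0% of its 50-base words lie in Cadm3, which overlaps it on the same strand and had 493 CPM in uLN. Ccrl2, which presents the chemoattractant chemerin, rose by 0.26 on the log2 scale, a call lost without uLN replicate 2 (adjusted p = 0.0513 in edgeR's quasi-likelihood test). Ackr2, Ackr3 and Ackr4 had at most 11.17 reads in any library.

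The counts of called genes in the lists that follow stand beside 33.2% higher and 34.2% lower among all tested genes, 67.4% in all. Ligands of the 9 receptors were looked up in the same cells. Of 25 listed ligands 19 were found and 9 were tested. The ligands listed for Ccr7 and Cxcr5 (Ccl19, Ccl21a and Cxcl13) were among those not found. Of the 9 tested ligands 5 rose and 2 fell, with a median log2 change of 0.44. That count and median include Ccl5 and Ccl7, which passed the expression filter only through their mLN libraries. Ccl5, a ligand of Ccr1 and Ccr3, rose from 0.324 to 38.0 CPM and Mif, which also binds Cxcr2 and Cxcr4, rose 5.13-fold. Ccl4 and Ccl6 fell 2.98-fold and 1.74-fold. Outside the naming rule and picked as partners of members, Cx3cl1, the ligand of Cx3cr1, rose 2.59-fold to 5.48 CPM. Its reads were 36, 61 and 14 in uLN and 103, 95 and 96 in mLN. Ccl2, a ligand of Ccr2, rose 1.36-fold, and Ccl7, also outside the rule, rose 4.41-fold to 2.87 CPM. The 2 tested ligands that were not called, Ccl3 and Ccl9, are given outside the rule too. Ccl3, a ligand of Ccr1, had 43.2 CPM in uLN and 43.4 in mLN, and Ccl9 had 139 and 129. The Cxcr4 ligand Cxcl12 had 4 to 8 reads in uLN and 9 to 12 in mLN. For Cxcl3, a ligand of Cxcr2, no uLN library held a read and the mLN libraries held 9.89, 12.7 and 10.64.

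The machinery through which these receptors signal was measured well. Of 22 tested G protein subunits and effectors 14 rose and 5 fell (median log2 change of 0.19). The Rac activator Prex1 rose 3.90-fold, the gamma subunits Gng2 and Gng12 2.06-fold and 1.71-fold, and Gnb5 6.21-fold from 1.46 CPM. Gnai2, the inhibitory alpha subunit that most chemokine receptors use in leukocytes, had 917 CPM in uLN and 897 in mLN and was not called. Of 16 receptor kinases, arrestins and RGS proteins 4 rose and 7 fell (median -0.04), with falls of 2.62-fold for Rgs14, 2.66-fold for Rgs2, 2.77-fold for Rgs1 and 1.89-fold for Rgs19, which speed up the shut-off of G proteins. In the list of Rac, Dock and motility genes 15 of 27 fell and 8 rose (median -0.17), among them the Rac activators Dock2 and Tiam1, which fell 2.02-fold and 1.83-fold, the actin regulator Coro1a with a 2.10-fold fall and Arhgdib with a 2.29-fold fall.

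For receptor traffic and tyrosine sulfation 6 of 13 tested genes rose and 3 fell (median 0.12). Rab4a of fast recycling rose 2.39-fold and the ubiquitin ligase Wwp1 1.51-fold, while Hgs and Rab7, which send receptors to lysosomes, fell 1.46-fold and 1.26-fold. In a list of regulators and partners of Cxcr4 6 of 12 rose and 3 fell (median 0.26), led by Vegfa at 10.2-fold, Cd74 at 6.55-fold and Klf2 at 2.35-fold, and Nr4a1 fell 3.51-fold. Of 11 tested receptors for other chemoattractants 3 rose and 4 fell (median 0.03). Hrh4, a histamine receptor, fell 3.04-fold, the leukotriene B4 receptor Ltb4r2 2.99-fold, the platelet-activating factor receptor Ptafr 2.32-fold and the oxysterol receptor Gpr183 2.27-fold.

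Genes with the most similar profile were sought for the members with the highest CPM, by the Euclidean distance of log2 CPM over 6 libraries, each gene centred on its own mean, among 9946 tested genes of at least 5 CPM. Nearest to Cx3cr1 were Rufy1 at a distance of 0.0574, Rgs19 at 0.0647 and Ankrd49 at 0.0816. Nearest to Ccr1 were Eif4a1 at 0.0819, Exoc7 at 0.0823 and Cisd2 at 0.0834. With 6 libraries in 2 groups such distances mostly follow the size of the group difference.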

How the data were processed

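Per the labels' protocols, mRNA of 6 mouse mast cell samples (Qiagen RNeasy extraction) was sequenced on DNBSEQ. The submitters' processing notes name TopHat, cutadapt, FastQC and the build GRCm38. The counter, annotation and strand setting: not given in the sources used here. What the authors deposited is a single unscaled table of estimated counts, in which 32.2% to 32.8% of a library's values were not whole numbers. They were rounded for the tests. The table holds 17890 genes and 1 row without a gene, left out, and 26 symbols turned into dates were restored by gene ID.

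mLN was compared with uLN by the quasi-likelihood test of edgeR 4.0.16 in R 4.3.3, with TMM scaling and the default expression filter, which left 12706 genes and dropped 5184. Benjamini-Hochberg adjustment ran over all tested genes, and a gene was called, and is said to rise or fall, at an adjusted p under 0.05. The standard error is the log2 change over the square root of F. The test was tried on simulated data. Exon lengths and overlaps came from GENCODE M21 and gene coordinates and promoters from RefSeq GRCm38.p6. Total counts of 17643916 to 17799420 per library limit members with few reads, and intervals and the 3-read floor cover counting error only. DESeq2 1.42.0, other scalings and filters, a set spread, the replicate block and leaving out each library were tried.

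The members and lists were chosen with earlier results of these data known. Named genes were all members, the other chemokine receptors (1 gene is not reported here), up to 4 called genes per pathway list in the order of adjusted p, and the 3 nearest profiles. Per-gene chi-square means of 2.06 or more kept every pair of libraries as separate samples. The labels do not say that replicates came from separate animals, so the p-values rest on a spread among libraries that could be technical only. Same-numbered libraries did not deviate together (correlations of 0.041, -0.135 and 0.004).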

Additional observations from a re-analysis of the deposited data

How the results depend on the processing

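Under 14 alternatives, Cx3cr1, Ccr1 and Ccr3 kept their direction and their call, with log2 changes of -1.0 to -0.75, -0.63 to -0.51 and 1.14 to 1.32. Members called higher numbered 3, and 1 to 3 with 1 library left out, the lowest without uLN replicate 2. Members called lower numbered 3, and 2 to 3 with 1 library left out. Over all genes 4219 were higher and 4347 lower, and 3843 to 4403 and 4017 to 4492 with 1 library left out. Among genes of the pathway lists 48 were higher and 40 lower, and 44 to 51 and 35 to 39 with 1 library left out. With the biological coefficient of variation set to 0.2, in place of the 6.49% estimated here, 2145 genes were higher and 1913 lower, 31.9% of those tested, and 20 and 18 list genes. Of the members, Cxcr2 was not called there (adjusted p = 0.316 in edgeR's likelihood ratio test), while 3 were called higher and 2 lower. For Cxcr4 and Cxcr5 that setting gave smaller errors than the main test, so it was not a stricter check for them. The replicate numbers share only a number, and as a replicate block they gave 4122 genes higher and left 3 members higher and 3 lower. Of 32 named pathway genes no called one changed sign, the uncalled Xcr1 ranged from -0.25 to 0.19, and Ccr1l1, Ccrl2, Hgs and Rab7 lost their call under at least 1 alternative. Cxcr5 was removed by a filter on a mean of 1 CPM. Levels per coding length were added after the data were seen. The cause of each lost call was not tested. Low depth limits Cxcr4, Cxcr5, Ccr7 and Cxcr3, and rows with few reads give wide errors.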

Other observations

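Cxcl2, a ligand of Cxcr2, had 1 read in uLN replicate 2 and 0 in the other uLN libraries, against 13.11, 25.3 and 6.36 reads in mLN. It was too rare for the test, like Cxcl3. Cxcl1, Cxcl5 and Ppbp, also in the ligand list and untested, had 0, 3.05 and 0 reads over uLN and 2, 4.11 and 5 over mLN. Cxcr2 itself was lower in each mLN library, but lost its call under 7 of 14 alternatives. A link between these ligands and Cxcr2 was not tested. Ackr3, the other receptor of Cxcl12, had 1 to 3 reads in uLN and 9, 0 and 2 in mLN, so its reads lay mostly in mLN replicate 1. Ccl24, a ligand of Ccr3, had 1 read in each uLN library and 3, 0.66 and 6 in mLN, and Ccl11, another, had at most 2 reads in any library.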
